A study of Mus musculus with 2 samples.

Results

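The mitochondrial ribosomal protein genes are the nuclear genes for the protein parts of the ribosome inside mitochondria. They were taken as every gene of the expression table whose symbol begins with Mrpl or Mrps and a number, which gave 67 of 8249 genes. Of these, 43 carry large subunit symbols (Mrpl) and 24 small subunit symbols (Mrps). RNA sequencing values were compared between 2 lymphomas of L-DKO mice, both negative for the CD1d tetramer, the reagent that stains invariant natural killer T cells. One tumour grew in a Peyer's patch, lymphoid tissue of the small intestine, in a mouse aged 26 weeks, and the other in the thymus of a mouse aged 30 weeks. The series title ties these mice to high levels of E proteins, transcription factors of T cell development, and the labels spell out no further alleles, treatment or sex. With 1 library per tumour there is no replicate and no test, so each difference below describes these 2 libraries, and site, mouse and age cannot be told apart. Since RNA came from bulk samples, fewer cells of a type and less RNA per cell cannot be told apart either.

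The mitochondrial ribosome, or mitoribosome, translates only the few messages of the mitochondrial genome, all of which encode membrane subunits of the respiratory chain and ATP synthase. Its RNA is transcribed in the mitochondrion, whereas all of its proteins are encoded in the nucleus, made in the cytosol and imported. Some of these proteins descend from those of bacterial ribosomes, and others were added during the evolution of mitochondria. The small subunit reads the message, and the large subunit joins amino acids and passes the new chain to the inner membrane through its exit tunnel. T cells depend on this machinery when they divide and build mitochondria.

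Levels are given as FPKM, fragments scaled by transcript length and library size, computed from deposited values that were read as log2(FPKM + 1). Values of the Peyer's patch library are given as in the patch, and those of the thymic library as in the thymus. Differences are on that log2(FPKM + 1) scale, Peyer's patch library minus thymic library, so a positive one means more in the Peyer's patch library. Genes with a difference of 2 or more in either direction, which is 4-fold, were called apart. All 67 members reached 1 FPKM in at least 1 tumour and could be compared. Of the 78 protein-coding mouse genes with such symbols in RefSeq, 66 were members. The other 12 were not analysed here, although 1 of them, Mrpl58, was measured under its older symbol Ict1. The remaining member, Mrpl23-ps1, is annotated as a processed pseudogene. In the published structures of the mammalian mitoribosome the Mrps18a protein lies in the large subunit, and the Mrps36 protein is now assigned to the 2-oxoglutarate dehydrogenase complex. Symbols were followed here for the main values.

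Markers of other cell types differed between the libraries, whereas the median gene was close, with 31.2 FPKM in the patch and 32.6 in the thymus. T cell markers were measured in full, 10 of 10, and summed to 4340 FPKM in the Peyer's patch library and 2571 in the thymic library. Of these, 9 had a higher value in the patch, Cd3d by little. The other, Cd3e, was at 172 FPKM in the patch and 561 in the thymus. Erythroid markers, 4 measured of 10 listed, summed to 2425 FPKM in the patch and 96390 in the thymus. MHC class II genes (5 of 10) summed to 336 FPKM in the patch and 1874 in the thymus, and B cell genes (3 of 8) to 1593 FPKM in the patch and 10106 in the thymus. Single genes carried or opposed these sums. Igkc, an immunoglobulin light chain gene, made up most of the B cell sum, at 1428 FPKM in the patch and 9811 in the thymus. Higher in the patch were Cd72 of the B cell list and H2-Ob of the class II list, with differences of 1.17 and 1.42. Macrophage genes (3 of 5) summed to 277 FPKM in the patch and 758 in the thymus, and epithelial genes (2 of 5) to 104 FPKM in the patch and 79.4 in the thymus. None of the measured markers was at 0. Of 4 listed markers of invariant natural killer T cells, 3 were measured and summed to 179 FPKM in the patch and 15.3 in the thymus, in tumours labelled tetramer-negative. The part of these cells in the values of the members was not tested.

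The median large subunit gene stood below the median small subunit gene in the Peyer's patch library and above it in the thymic library. In the Peyer's patch library the median Mrpl gene stood at 39.7 FPKM (interquartile range 26.5 to 63.9) and the median Mrps gene at 59.7 FPKM (37.6 to 99.1). In the thymic library the median Mrpl gene stood at 56.0 FPKM (27.2 to 82.7) and the median Mrps gene at 27.3 FPKM (17.0 to 66.2). On the log2 scale the Mrpl median was thus 0.58 below the Mrps median in the Peyer's patch library and 1.01 above it in the thymic library. The ranges overlapped in both tumours, and the distance in the thymic library depended on the summary, at 0.43 when means replaced medians and at 0.42 without the 29 members whose exons overlap another annotated gene. Summed over members, Mrpl genes made up 2639 FPKM in the Peyer's patch library and 3082 in the thymic library, and Mrps genes 1713 FPKM in the patch and 1340 in the thymus.

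**Figure D1:**
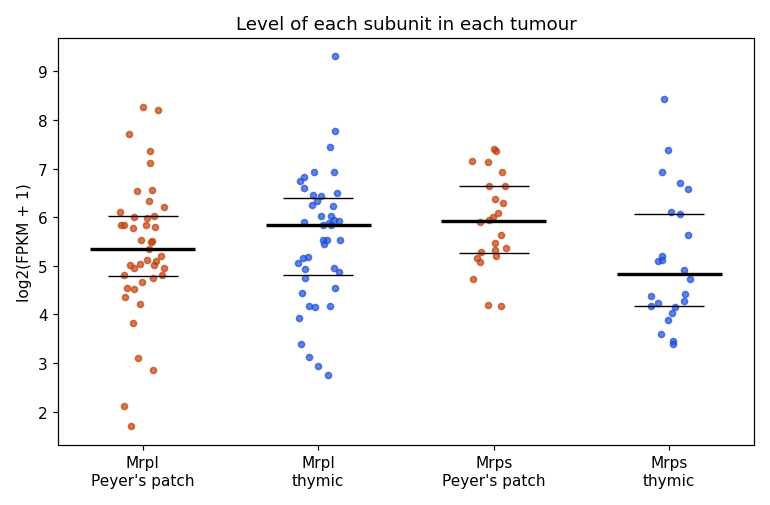
Level of every Mrpl and Mrps gene as log2(FPKM + 1) in each tumour, 1 point per gene, with thick bars at the median and thin bars at the quartiles. The Mrpl median lies 0.58 below the Mrps median in the Peyer's patch library and 1.01 above it in the thymic library, with wide overlap of the points.

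Gene by gene, most Mrps genes had more in the Peyer's patch library, and the Mrpl genes were divided. Of 43 Mrpl genes 19 had a difference above 0, and of 24 Mrps genes 16 did, where 51.4% of all 8245 genes tested were above 0. The median difference was -0.28 for Mrpl genes and 0.68 for Mrps genes, 0.95 apart, beside 0.05 for all genes. The sign of the Mrpl median depended on scaling, at 0.26 with both libraries brought to the same total and 0.33 with the authors' standard scores, which moved the median of all genes up by 0.52 and 0.43. Relative to all genes, the Mrpl median was -0.33 as deposited and between -0.33 and -0.15 under the scalings run, and the Mrps median was 0.63 as deposited and between 0.62 and 0.64.

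Across the whole set, the share of genes far apart was close to that of the table, and more of them were higher in the Peyer's patch library than in the thymic library. Of the 67 members 13 were at least 4-fold apart, which is 19.4%, against 19.9% of all genes tested. In the Peyer's patch library 10 members (14.9%) were at least 4-fold higher, where 7.84% of all genes were. In the thymic library 3 members (4.48%) were at least 4-fold higher, where 12.0% of all genes were. With both libraries brought to the same total the split was 13 and 1, but this scaling also moved the median of all genes from 0.05 to 0.57. At that setting 22.3% of all genes were at least 4-fold apart, and their split by direction was not computed. Of the 10 members higher in the Peyer's patch library, 4 were Mrpl genes and 6 were Mrps genes, and the 3 higher in the thymic library were all Mrpl genes. Within 2-fold lay 35 members, where 49.8% of all genes did, and the median over all 67 was 0.06.

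**Figure D2:**
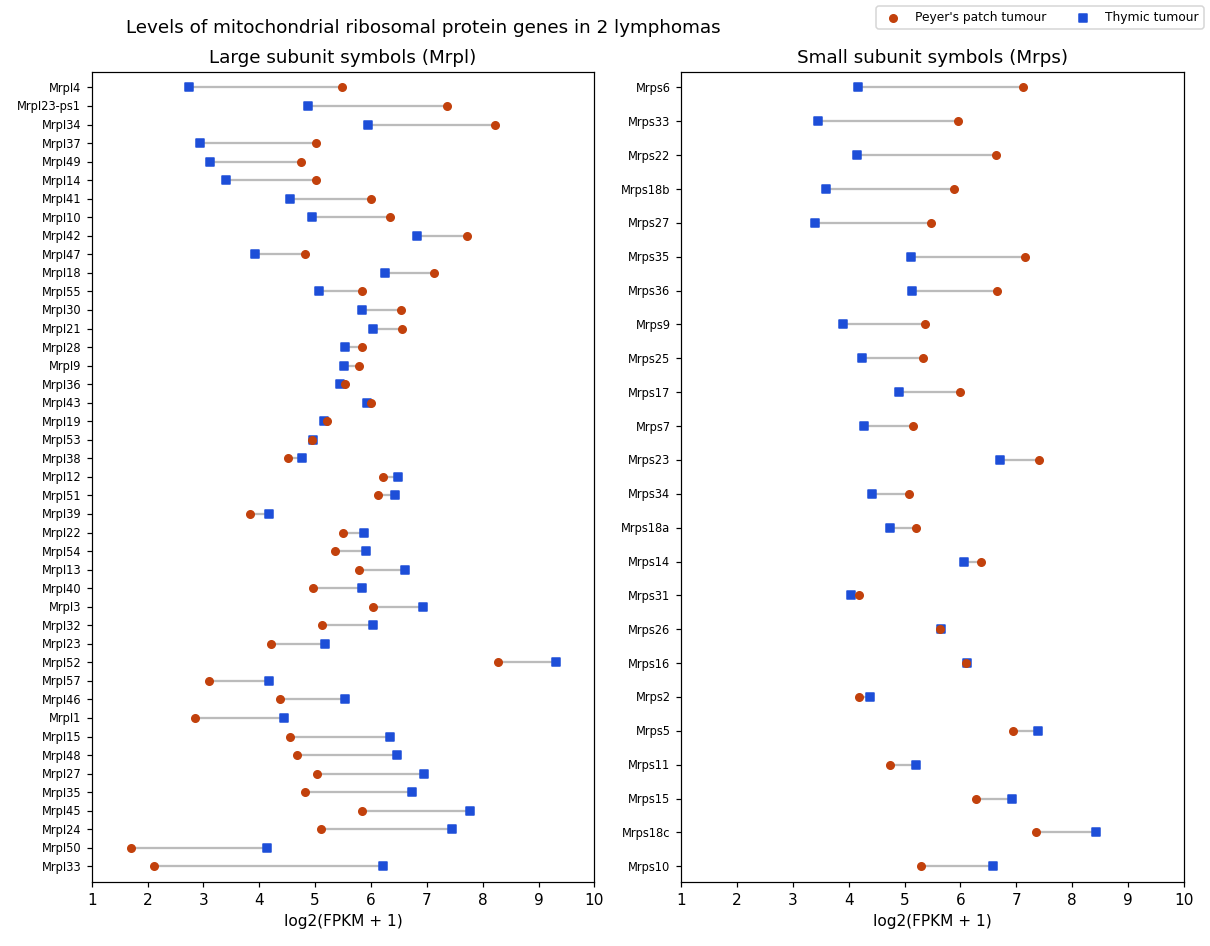
Level of each of the 67 genes as log2(FPKM + 1) in the Peyer's patch library (circles) and the thymic library (squares), joined by a line, with Mrpl genes on the left and Mrps genes on the right, ordered from the largest positive difference at the top. The lines run from Mrpl4 at 2.74 to Mrpl33 at -4.10 on the left and from Mrps6 at 2.96 to Mrps10 at -1.29 on the right.

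Small subunit genes made up 6 of the 10 members with the widest positive differences. Mrps6, a body protein with a bacterial counterpart, had a level of 139 FPKM in the Peyer's patch library and 17.0 FPKM in the thymic library, the widest positive difference at 2.96. It shares exon sequence on the same strand with Slc5a3, an inositol transporter gene listed at 0.762 FPKM in the patch and 1.74 in the thymus. Mrps33, in the head of the subunit and with no bacterial counterpart, was at 61.0 FPKM in the patch and 9.94 in the thymus. Mrps22, in which inherited mutations cause a mitochondrial disease in humans, was at 99.0 FPKM in the patch and 16.8 in the thymus. Among the 67 members, ordered from the highest level, these 3 genes had ranks 8, 25 and 12 in the Peyer's patch library and ranks 53, 62 and 56 in the thymic library. Mrps18b, one of a family of 3 related genes, was at 58.4 FPKM in the patch and 11.1 in the thymus. Mrps27, a protein with pentatricopeptide repeats that binds RNA, was at 43.3 FPKM in the patch and 9.51 in the thymus, and Mrps35 was at 142 FPKM in the patch and 33.5 in the thymus with a difference of 2.05, just past the threshold. Mrps18b, Mrps27 and Mrps35 fell short of 4-fold with a pseudocount of 5, at 1.98, 1.74 and 1.93, and Mrps35 also with the libraries scaled by their median ratio.

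None of the 8 Mrps genes below 0 was 4-fold apart. Mrps10, a head protein, had a level of 38.2 FPKM in the Peyer's patch library and 95.2 in the thymic library, a difference of -1.29. Mrps18c, the family member that corresponds most closely to the bacterial protein, was at 163 FPKM in the patch and 343 in the thymus, a difference of -1.07, and was the second highest member of all in the thymic library. The family thus lay on both sides of 0, with Mrps18a at 35.9 FPKM in the patch and 25.7 in the thymus, a difference of 0.47. Mrps15, Mrps11, Mrps5, Mrps2, Mrps16 and Mrps26 had differences between -0.64 and -0.02, and among them Mrps5 was one of the highest members, with 121 FPKM in the patch and 167 in the thymus. Mrps16, whose human counterpart was among the first mitoribosomal genes tied to disease, was at 67.3 FPKM in the patch and 68.2 in the thymus, and Mrps26 at 48.4 FPKM in the patch and 49.0 in the thymus, so that both were nearly equal. Of the rest, Mrps36, the gene of the dehydrogenase subunit, was at 99.4 FPKM in the patch and 33.9 in the thymus.

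Large subunit genes lay at both ends. Mrpl33 had the widest difference of any member, at 3.35 FPKM in the Peyer's patch library and 73.7 in the thymic library, a difference of -4.10. Its longest coding transcript is annotated with 478 bases, and it shares exon sequence on the same strand with Gm43809. Mrpl50 was at 2.25 FPKM in the patch and 16.7 in the thymus, the lowest member in the Peyer's patch library, and Mrpl24 was at 33.5 FPKM in the patch and 174 in the thymus. Both proteins lie near the mouth of the exit tunnel, and scaling by total put both short of 4-fold, Mrpl24 at -1.81. Mrpl24 shares exon sequence on the opposite strand with Rrnad1, which was at 39.0 FPKM in the patch and 49.0 in the thymus. Just short of 4-fold on the same side were Mrpl45, which ties the ribosome to the inner membrane, at 56.3 FPKM in the patch and 218 in the thymus, and Mrpl35 and Mrpl27 with differences of -1.93 and -1.91.

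At the other end, Mrpl4, a protein whose bacterial counterpart lines the tunnel, had a level of 43.7 FPKM in the Peyer's patch library and 5.70 in the thymic library, where it was the lowest member. Mrpl34 was at 296 FPKM in the patch and 60.4 in the thymus, and Mrpl37 at 31.4 FPKM in the patch and 6.65 in the thymus, with a difference of 2.08, or 1.64 with a pseudocount of 5. The pseudogene Mrpl23-ps1 was at 164 FPKM in the patch and 28.4 in the thymus, a difference of 2.49, while its parent gene Mrpl23, another tunnel exit protein, was at 17.5 FPKM in the patch and 35.1 in the thymus, a difference of -0.97. Of the sum of the pair, the pseudogene held 90.4% in the Peyer's patch library and 44.7% in the thymic library. Because fragments of a gene and its processed copy can be assigned to either, the 2 values are uncertain singly, and their sum was 181 FPKM in the patch and 63.5 in the thymus. Without the pseudogene 9 members rather than 10 were higher by at least 4-fold in the Peyer's patch library. Overlap with exons of another annotated gene was found for 29 members, of which 7 shared the strand, and for 5 of the 13 that were apart. The kit kept strand, but whether the counting used it was not stated, so values of these genes are uncertain.

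Promoter sequences of the members were then searched for motifs known from nuclear genes for mitochondria. A window of 300 bases, 250 before and 50 after the RefSeq start on GRCm38.p6, was found for 58 of 67 members. Motifs were sought on both strands with no mismatch. The core CCGGAAG of ETS factors, among them GABP, a known regulator of nuclear genes for mitochondria, was in 22 of 58 member promoters (37.9%), in 24.8% of those of all table genes and in 9.93% of all 27025 genes with a window. It was in 13 of 36 Mrpl and 9 of 22 Mrps promoters. Members with it had a median difference of -0.02 and members without it 0.20. The palindromic site of NRF1, another factor known for such genes, was in 3 members, Mrpl9, Mrpl32 and Mrpl39 (5.17%), against 2.94% of table genes and 1.07% of all genes. The long form of the YY1 site was in 5 (8.62%), against 2.31% and 0.755%.

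Of members at least 4-fold apart with a window, 5 of 7 higher in the Peyer's patch library and 1 of 3 higher in the thymic library held CCGGAAG. The last motif, part of the site of the zinc finger factor ZNF143, was added after these promoters, of members at least 4-fold apart, had been read. Its share in members thus depends on that choice and is no independent finding. It was in 3 of 58 members, Mrpl34, Mrpl50 and Mrps22, where 2.72% of table genes and 1.09% of all genes held it. Shown are the 120 bases before the start of those 3 genes and of Mrps27, because they hold these motifs and lie at both ends of the differences, and of Mrps6, the member with the widest positive difference. Capitals mark CCGGAAG, its reverse complement, or the ZNF143 motif, which reads ACTACATTTCCC in all 3 genes. The windows are chr8:71464806-71464925 on the plus strand for Mrpl34, chr9:98601680-98601799 on the minus strand for Mrps22, chr13:99344666-99344785 on the plus strand for Mrps27, chr4:49521084-49521203 on the minus strand for Mrpl50 and chr16:92058216-92058335 on the plus strand for Mrps6. Sequences and coordinates are from RefSeq on GRCm38.p6, a later build than the one used for the expression values.
Mrpl34: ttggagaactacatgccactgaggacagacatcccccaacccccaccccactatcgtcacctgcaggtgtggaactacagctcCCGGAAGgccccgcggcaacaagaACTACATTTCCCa
Mrps22: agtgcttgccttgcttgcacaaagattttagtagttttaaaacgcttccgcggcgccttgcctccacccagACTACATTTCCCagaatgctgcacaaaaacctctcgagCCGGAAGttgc
Mrps27: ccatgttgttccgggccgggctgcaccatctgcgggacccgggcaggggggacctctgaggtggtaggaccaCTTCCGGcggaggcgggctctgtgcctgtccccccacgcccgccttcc
Mrpl50: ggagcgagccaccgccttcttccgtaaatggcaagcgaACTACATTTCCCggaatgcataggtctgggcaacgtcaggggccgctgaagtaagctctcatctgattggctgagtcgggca
Mrps6: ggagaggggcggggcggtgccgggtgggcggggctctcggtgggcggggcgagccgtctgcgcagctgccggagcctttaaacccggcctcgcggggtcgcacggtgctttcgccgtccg

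Mrpl34 and Mrps22, both higher by at least 4-fold in the Peyer's patch library, hold both motifs close to the start, with CCGGAAG beginning 37 and 11 bases before it. Mrpl50, higher by at least 4-fold in the thymic library, shares ACTACATTTCCC with them and lacks CCGGAAG. Mrps6 holds none of the motifs sought in this window, and 77.5% of its 120 bases are G or C, against a median of 61.7% over the same stretch in members. A motif match is a description of the letters, and absence of one says nothing of the factor.

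The order of the members' levels was less alike in the libraries than that of cytosolic ribosomal protein genes. Mrpl52 was the highest member in both tumours, at 308 FPKM in the Peyer's patch library and 634 in the thymic library, with an annotated length of 463 bases. Next in the Peyer's patch library came Mrpl34 with 296 FPKM, Mrpl42 with 209 FPKM and Mrps23 with 169 FPKM. Next in the thymic library came Mrps18c with 343 FPKM, Mrpl45 with 218 FPKM and Mrpl24 with 174 FPKM. At the low end, Mrpl1, of the stalk through which spent transfer RNA leaves, was at 6.24 FPKM in the patch and 20.6 in the thymus, and Mrpl57 at 7.62 FPKM in the patch and 16.9 in the thymus. Mrpl49 was under 10 FPKM in the thymus, with 26.0 FPKM in the patch and 7.67 in the thymus. The most level members beside Mrps16 and Mrps26 were Mrpl53, Mrpl19 and Mrpl43, with differences of -0.01, 0.05 and 0.06. Levels in both tumours correlated across the 67 genes with Spearman's rho = 0.35, against 0.88 across 86 cytosolic ribosomal protein genes and 0.62 across all genes tested. These are descriptions across genes of the same 2 libraries, and genes are not independent replicates. A wider range of levels raises such a correlation, and the cytosolic genes also stood higher, with a median of 1374 FPKM in the Peyer's patch library and 914 in the thymic library, against 44.3 FPKM in the patch and 42.7 in the thymus for the members.

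By place in the ribosome, members at the tunnel exit and in the central protuberance had the lowest medians. These groups follow published structures. Of the 7 measured tunnel exit genes 6 were below 0, with a median of -0.97, and Mrpl47 alone was above 0, at 27.0 FPKM in the patch and 14.1 in the thymus. That median is the value of Mrpl23, which is uncertain because its fragments can be assigned to the pseudogene Mrpl23-ps1. The sum of that pair went the other way, at 181 FPKM in the patch and 63.5 in the thymus. The count and median of this group thus depend on that assignment, and neither was computed with the summed pair. Of the 6 genes of the central protuberance, the ridge of the large subunit that faces the small one, 5 were below 0, with a median of -1.02. There Mrpl27 was at 31.7 FPKM in the patch and 122 in the thymus and Mrpl48 at 24.4 FPKM in the patch and 87.1 in the thymus, whereas Mrpl18 was at 139 FPKM in the patch and 75.3 in the thymus. The 3 stalk genes, whose proteins recruit translation factors or guide transfer RNA, were spread, with Mrpl10 at 79.7 FPKM in the patch and 29.8 in the thymus, Mrpl12 at 73.3 FPKM in the patch and 89.0 in the thymus, and Mrpl1 as given above. The 27 Mrpl genes outside these groups had 16 above 0 and a median of 0.08.

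In the small subunit, 6 of 7 head genes were above 0 with a median of 0.88, and 8 of 14 body genes with a median of 0.68. The same 51.4% of all genes were above 0. Head genes above 0 included Mrps9 at 40.4 FPKM in the Peyer's patch library and 13.9 in the thymic library and Mrps7 at 34.7 FPKM in the patch and 18.5 in the thymus, both with bacterial counterparts. Body genes included Mrps17 at 62.9 FPKM in the patch and 29.0 in the thymus and Mrps25 at 39.0 FPKM in the patch and 17.8 in the thymus.

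The distance between the subunits was widest among proteins that bacteria lack. Of these, 16 Mrpl genes had 5 above 0 and a median of -0.32, and 9 Mrps genes had 8 above 0 and a median of 1.09, which put the medians 1.42 apart. The Mrpl median again lies within the 0.52 by which scaling to the same total shifts all genes. That shift was 0.16 with mitochondrial transcripts left out of the total. Among genes with a bacterial counterpart, 25 Mrpl genes had 13 above 0 and a median of 0.05, and 14 Mrps genes had 7 above 0 and a median of 0.15. The means of this class were further apart than its medians, at -0.22 for Mrpl genes and 0.38 for Mrps genes. Higher by at least 4-fold in the Peyer's patch library were 4 of the 9 mitochondria-specific Mrps genes, namely Mrps22, Mrps27, Mrps33 and Mrps35, against 7.84% of all genes. The 1 of these 9 below 0 was Mrps26, at -0.02. Mrpl57, Mrps36 and Mrpl23-ps1 were placed in neither class and are left out of these counts.

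**Figure D3:**
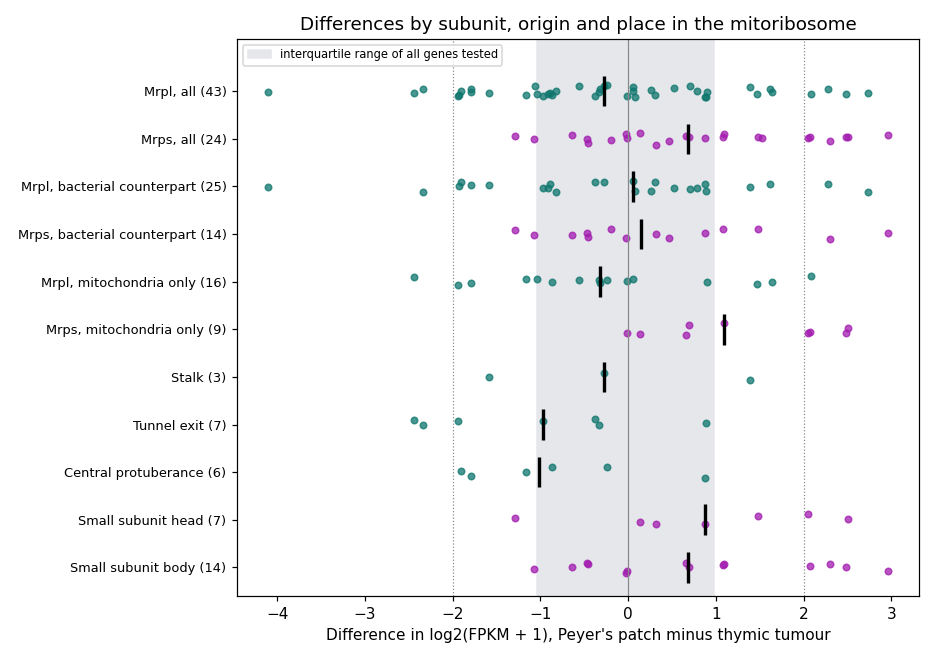
Difference in log2(FPKM + 1), Peyer's patch minus thymic library, of each member by subunit, by origin and by place in the mitoribosome, 1 point per gene, with a bar at the median, a grey band from -1.03 to 0.98 for the interquartile range of all genes tested and dotted lines at 4-fold. The medians run from -1.02 in the central protuberance to 1.09 for Mrps genes without a bacterial counterpart. The median of all Mrpl genes, -0.28, is 0.26 with both libraries at the same total and 0.33 with the authors' scores. It is -0.11 with mitochondrial transcripts left out of that total.

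For cytosolic ribosomal protein genes in the same libraries, the subunit medians were 0.06 apart. Their 50 Rpl genes had a median difference of 0.71 with 44 above 0, and their 36 Rps genes had 0.65 with 32 above 0. Of the 86, 2 were higher by at least 4-fold in the Peyer's patch library and 0 in the thymic library, against 7.84% and 12.0% of all genes. The SD of the differences was 0.78 over these 86 genes, 1.45 over the 67 members and 1.63 over all genes tested. Among the 2484 genes in the interquartile range of the members' own mean levels, 18.6% were at least 4-fold apart, close to the 19.4% of members.

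The genes of mitochondrial translation under other symbols were mixed. Of 7 ribosomal proteins without an Mrp symbol in the list, 5 were measured. Dap3, a GTP-binding protein of the small subunit head, had a level of 171 FPKM in the Peyer's patch library and 67.1 in the thymic library, and Aurkaip1 and Ptcd3, both of the small subunit, had differences of 1.21 and 0.91. Chchd1, also of the small subunit, had more in the thymic library, at 25.5 FPKM in the patch and 111 in the thymus, a difference of -2.08. The large subunit gene Ict1, a peptide release factor built into the ribosome, had a difference of -1.59.

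Of 14 listed translation factors 10 had values, and 7 of these were above 0, with a median of 1.27, where 51.4% of all genes were above 0. At least 4-fold apart were 3 of the 10, against 19.9% of all genes. Higher by at least 4-fold in the Peyer's patch library were 2 of them, Mtif3, an initiation factor that acts on the small subunit, at 44.6 FPKM in the patch and 7.43 in the thymus, and Pdf, which removes the formyl group from new chains, at 34.7 FPKM in the patch and listed at almost 0 in the thymus. A value of almost 0 can be a failed estimate, and no fold is given for Pdf. The release factor Mtrf1l was lower, at 4.69 FPKM in the patch and 35.1 in the thymus. Elongation factors Gfm1, Tsfm and Tufm had differences of 1.55, 1.81 and 0.23. Of 23 listed genes for charging mitochondrial transfer RNA 12 had values, and 10 of these were above 0, with a median of 0.80, and 1 was at least 4-fold apart, Vars2 for valine at 113 FPKM in the patch and 11.3 in the thymus.

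Assembly factors of the mitoribosome lay on both sides of 0. Of 31 listed symbols, which include older synonyms, 19 had values, with 10 above 0 and a median of 0.20. Their differences had an SD of 2.18, where that of all genes tested was 1.63. Higher by at least 4-fold in the Peyer's patch library were Fastkd2, which is needed for the large subunit RNA, at 205 FPKM in the patch and 9.52 in the thymus, and Mpv17l2 at 72.7 FPKM in the patch and 7.31 in the thymus. Higher by at least 4-fold in the thymic library were Mterfd1, which encodes MTERF3 (24.4 FPKM in the Peyer's patch library and 344 in the thymic library), Ybey, an endonuclease (16.8 FPKM in the patch and 148 in the thymus), the helicase Dhx30 (15.9 FPKM in the patch and 124 in the thymus), and the GTPases Mtg2 (17.3 FPKM in the patch and 122 in the thymus) and Noa1 (52.7 FPKM in the patch and 264 in the thymus). These 7 of 19 genes compare with 19.9% of all genes. Of 9 measured genes of mitochondrial DNA and transcription 6 were above 0, with a median of 0.74, where 51.4% of all genes were above 0. At least 4-fold apart were 3 of the 9, against 19.9% of all genes. Tfam, which packages that DNA, was at 66.8 FPKM in the patch and 12.7 in the thymus. The polymerase subunits Polg and Polg2 were lower in the patch, Polg at 8.22 FPKM in the patch and 60.6 in the thymus and Polg2 at 2.80 FPKM in the patch and 87.6 in the thymus.

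The RNA of the mitoribosome and most of the messages it reads were within 2-fold. The small subunit RNA, mt-Rnr1, had a level of 2499 FPKM in the Peyer's patch library and 3035 in the thymic library, and the large subunit RNA, mt-Rnr2, one of 7126 FPKM in the patch and 8857 in the thymus, with differences of -0.28 and -0.31. The libraries were made with an mRNA kit, so these values need not follow the amount of ribosomal RNA. All 13 protein genes of the mitochondrial genome were within 4-fold, with 11 below 0 and a median of -0.46. Scaling to the same total shifts the median of all genes by 0.52. However, transcripts of the mitochondrial genome made up 64.3% of summed FPKM in the patch and 72.4% in the thymus. That total thus rests largely on such transcripts, and its shift is no separate measure for these 13 genes. With mitochondrial transcripts left out of the total the shift was 0.16. Over 2-fold apart were 2 of the 13, both lower in the patch. These were mt-Nd3, of respiratory complex I, at 5022 FPKM in the patch and 13344 in the thymus, and mt-Atp8, of ATP synthase, with a difference of -1.19. The 73 nuclear genes of respiratory chain subunits had 57 above 0 (78.1%, against 51.4% of all genes) and a median of 0.70. Of them 7 (9.59%) were higher by at least 4-fold in the Peyer's patch library, near the 7.84% of all genes. In the thymic library 4 (5.48%) were, against 12.0% of all genes. These medians were not computed under other scalings.

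**Figure D4:**
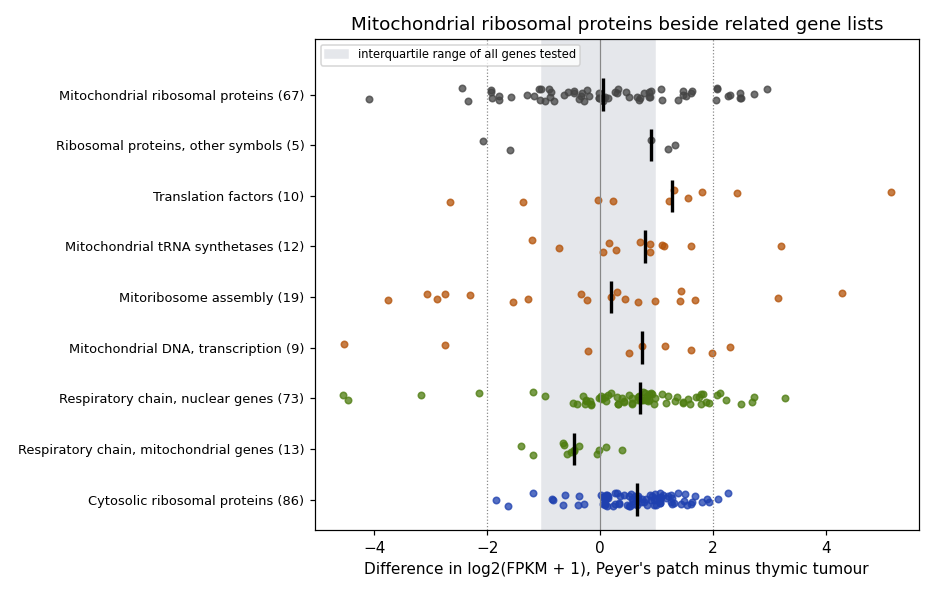
Difference in log2(FPKM + 1), Peyer's patch minus thymic library, for the 67 members and 8 related lists, 1 point per gene, with a bar at the median, a grey band for the interquartile range of all genes tested and dotted lines at 4-fold. The members' median of 0.06 lies below those of cytosolic ribosomal proteins at 0.66 and nuclear respiratory chain genes at 0.70, and the 13 protein genes of the mitochondrial genome lie at -0.46.

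Transcript length, by which FPKM divides in each library, was set beside the differences. The longest annotated coding transcript had a median of 1316 bases for Mrpl genes and 1411 for Mrps genes. Length and difference correlated across the 67 members with Spearman's rho = -0.14, and across 7844 genes tested with -0.07, where all points share the same 2 libraries. Among members with at most the median length of 1339 bases, 23 Mrpl genes had a median difference of -0.01 and 11 Mrps genes one of 0.66. Among longer members, 20 Mrpl genes had a median of -0.32 and 13 Mrps genes one of 0.70. The Mrps median was thus above the Mrpl median on both sides of that length. The lengths behind the deposited values were not given, and the part of length in the differences was not tested.

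**Figure D5:**
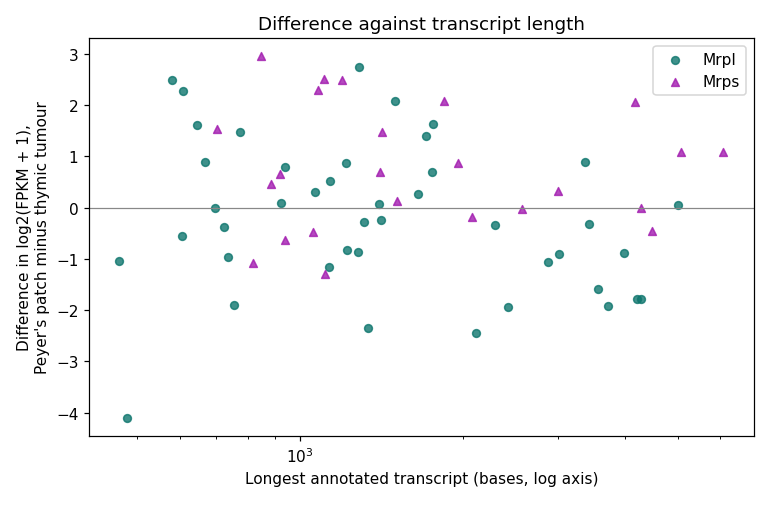
Difference in log2(FPKM + 1), Peyer's patch minus thymic library, against the longest annotated transcript in bases (log axis), with Mrpl genes as circles and Mrps genes as triangles. Points above and below 0 occur along the whole range of lengths, with rho = -0.14 over 67 genes.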

How the data were processed

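RNA sequencing values of 2 tumours were used, with 1 library each. Per the labels' protocols, RNA came from lysed tumour tissue and was made into stranded mRNA libraries, whereas the series design text speaks of sorted cells. The submitters' processing notes name TopHat, Cufflinks, Picard, GATK and build mm9. Neither the strand setting nor tool versions or gene models were given there. The deposited values headed FPKM were read as log2(FPKM + 1). Base and added 1 were inferred from the values. The deposited standard score of each library is a straight line of its log2 value. Without counts the depth is unknown, so no counting interval is given.

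FPKM was computed back from the log2 values. Genes with at least 1 FPKM in either library were tested, which kept 8245. No p-value was possible with 1 library per tumour. Named were the members at least 4-fold apart, the 5 widest in each direction, the 5 highest, lowest and most level, and the Mrps18 family. Other members, such as those of the ribosome groups, were added after their values were seen. In related lists, those at least 4-fold apart were named, and a few others for their role. Members, lists and rules were chosen with earlier results of these data known. Alternatives were other pseudocounts, filters, scalings, thresholds, summaries and member sets. Transcript lengths and exon overlaps come from GENCODE M21 by symbol, a later build than mm9, and promoters from RefSeq. Python 3.11.15, numpy 2.4.6 and pandas 2.3.3 were used. Protein sequences were not used here.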

Additional observations from a re-analysis of the deposited data

How the results depend on the processing

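These alternatives describe the 2 libraries, and without counts the depth behind each value is unknown, so short or low genes may be less precise than others. The alternatives that used the authors' scores, left out the pseudogene or left out members with overlapping exons were chosen after seeing the data. No paired analysis was possible because each tumour has 1 library. The median difference of all members, 0.06, was 0.0077 scaled by median ratio, 0.036 by upper quartile, 0.59 by total and 0.23 by total without mitochondrial transcripts, 0.15 as a mean and 0.52 with the authors' scores. The Mrpl median of -0.28 reversed to 0.26 by total, 0.33 with the scores and 0.051 among genes with a bacterial counterpart, and was -0.11 by total without mitochondrial transcripts. The Mrps median of 0.68 was 1.21 by total, 1.10 with the scores, 0.15 among genes with a bacterial counterpart and 1.09 among mitochondria-specific genes. The distance of -0.95 between the subunits was -0.10 among genes with a bacterial counterpart, and the cause was not tested. The level distance of 1.01 in the thymic library was 0.43 with means and 0.42 without overlapping members. The 10 members at least 4-fold more in the Peyer's patch library became 6 with pseudocount 5, 18 at 2-fold, 0 at 8-fold, 4 among genes with a bacterial counterpart and 5 among mitochondria-specific ones. The 3 at least 4-fold more in the thymic library became 1 by total, 14 at 2-fold, 1 at 8-fold, 1 among mitochondria-specific genes and 1 without overlapping members. Of all genes, 22.3% were at least 4-fold apart by total and 12.9% with pseudocount 5. As deposited, 50.2% of all genes were at least 2-fold apart and 7.07% at least 8-fold. Of the 13 genes apart, 7 stayed past 4-fold under every alternative run except the 8-fold threshold. With pseudocount 5 the exceptions were Mrpl50 at -1.58, Mrps35 at 1.93, Mrps27 at 1.74, Mrpl37 at 1.64 and Mrps18b at 1.98, with scaling by total they were Mrpl24 at -1.81 and Mrpl50, by under 0.01, and elsewhere Mrpl50 at -1.62 with the scores and Mrps35, again by under 0.01, with the median ratio.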
